A study of Homo sapiens with 16 samples.

Results

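HMGA1, HMGA2, LIN28B, IGF2BP1, IGF2BP2 and IGF2BP3 are 6 genes of the HMGA and let-7 regulated oncofetal group, and their mRNA levels were followed in SW480, an established line from a human colorectal cancer that has a truncated APC gene. All probe sets annotated to exactly 1 of these symbols were taken, which gave 21 of the 54675 probe sets of the array and 6 of its 19775 genes. HMGA2 had 9 probe sets, IGF2BP3 had 4, IGF2BP1 had 3, HMGA1 and IGF2BP2 had 2 each, and LIN28B had 1. The genes were chosen by readout, with earlier results of these arrays known, above all the low HMGA2 signal in siTAZ cells. HMGA2 is therefore described without a test, and the counts of called probe sets over the other 5 genes are a description that supports nothing.

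RNA was hybridised to 16 Affymetrix arrays, 4 biological replicates lettered A to D in each of 4 groups. The siTAZ cells were parental SW480 cells with a stable empty vector that received an siRNA against TAZ, a coactivator of TEAD factors encoded by WWTR1. The sibcat cells carried the same empty vector and received an siRNA against beta-catenin, the Wnt effector encoded by CTNNB1. The APC cells were SW480 cells stably reconstituted with wild-type APC that received the control siRNA, and the siGFP cells carried the empty vector and received the control siRNA. Every group thus carried a stable vector, was transfected with an siRNA and grew in serum-containing medium with insulin and hydrocortisone. The labels name 1 siRNA condition per target and do not say whether the APC line is 1 clone.

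HMGA proteins bind the minor groove of AT-rich DNA through AT-hooks and change how chromatin folds. They are abundant in embryonic tissue, scarce in most adult tissue and high again in many carcinomas, colorectal carcinoma among them. The let-7 microRNAs repress HMGA2, LIN28B and the IGF2BP mRNAs through sites in their 3′ untranslated regions, and LIN28B in turn blocks the maturation of let-7. The IGF2BP proteins bind RNA and steady or move mRNAs such as MYC and ACTB.

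The mature let-7 sequences are shown because their shared seed is what joins these genes to let-7. The 9 forms below, from RefSeq (GRCh38.p14), are written 5′ to 3′ with the seed, bases 2 to 8, in capitals. All 9 carry the same seed, which 11 of the 2370 mature microRNAs in that table hold.
hsa-let-7a-5p: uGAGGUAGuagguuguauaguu
hsa-let-7b-5p: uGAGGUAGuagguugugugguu
hsa-let-7c-5p: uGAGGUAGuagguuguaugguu
hsa-let-7d-5p: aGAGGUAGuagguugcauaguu
hsa-let-7e-5p: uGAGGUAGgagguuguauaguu
hsa-let-7f-5p: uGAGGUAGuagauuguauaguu
hsa-let-7g-5p: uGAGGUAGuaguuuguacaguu
hsa-let-7i-5p: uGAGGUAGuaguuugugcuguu
hsa-miR-98-5p: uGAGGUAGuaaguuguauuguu
Mature microRNAs were not measured on these arrays, so the level of let-7 itself is not known here.

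The siRNAs lowered the transcripts they were aimed at. WWTR1 averaged 6.90 ± 0.15 in siTAZ cells and 10.28 ± 0.11 in siGFP cells on its brightest probe set (log2 level, SD, n = 4 each), which left 9.66% of the signal (limma adjusted p = 1.75e-14). CTNNB1 averaged 10.16 ± 0.24 in sibcat cells and 13.12 ± 0.16 in siGFP cells on its brightest probe set, which left 12.9% (limma adjusted p = 3.30e-12). Its probe set 1554411_at left 10.8%, but 223679_at left 75.7% (8.18 ± 0.03 against 8.58 ± 0.09, limma adjusted p = 8.39e-04). WWTR1 was also 0.70 higher in sibcat cells and 0.73 higher in APC cells than in siGFP cells on the log2 scale (limma adjusted p = 1.83e-06 and 1.19e-06), but not on its probe set 202134_s_at (-0.22 and 0.07, adjusted p = 0.269 and 0.786). APC itself was 0.08 higher in APC cells on its brightest probe set (limma adjusted p = 0.743). It was 0.40 higher on 203526_s_at (6.55 ± 0.08 against 6.15 ± 0.07, limma adjusted p = 0.00183) and 1.11 higher on 216933_x_at (limma adjusted p = 2.70e-05), which was dim in every group. The remaining APC probe sets, 203527_s_at (-0.00) and 215310_at (0.14, limma adjusted p = 0.225), were not called in APC cells. By their mean over all arrays, 8 of 10 markers of colorectal epithelium reached the median probe set level of 5.10, with KRT20 and GPA33 below it. It was also reached by 2 of 5 fibroblast markers (highest 6.89; COL3A1, LUM and DCN below), 1 of 3 endothelial markers (highest 5.96; VWF and CDH5 below) and 2 of the 3 leukocyte markers analysed (highest 5.28; PTPRC below).

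Levels are given below as log2 RMA values, differences as the first-named group minus the second, and errors as SD over 4 arrays or as the standard error (SE) of the limma fit. A probe set was called at a Benjamini-Hochberg adjusted p under 0.05 over all 54675 probe sets. Levels of different probe sets are not comparable with each other, so levels are compared between groups only. These are bulk samples, in which fewer cells expressing a gene and less of its RNA per cell cannot be told apart. Of the 21 probe sets, 13 reached 5.10 in at least 1 group, and the other 8 (6 of HMGA2, 1 of LIN28B and 1 of IGF2BP1) lay below it in all groups, where much of the signal may be background.

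HMGA2, the architectural factor known as a let-7 target with many sites, was low in siTAZ cells and high in sibcat cells. On probe set 208025_s_at the 4 siTAZ arrays read 7.05, 7.13, 7.06 and 7.02. The 4 sibcat arrays read 11.42, 11.37, 11.49 and 11.44. The APC arrays read 9.96, 10.09, 10.03 and 10.02, and the siGFP arrays 9.99, 9.93, 10.04 and 9.99. The siTAZ and sibcat groups each stood clear of every array of the other groups, on opposite sides, while the APC and siGFP arrays were interleaved. The siTAZ mean was 2.92 below the siGFP mean on the log2 scale (7.06 ± 0.05 against 9.99 ± 0.04, difference -2.92, SE 0.05), so 13.2% of the siGFP signal was left. The sibcat mean of 11.43 ± 0.05 was 1.44 above siGFP (SE 0.05), or 2.72-fold. The APC mean of 10.02 ± 0.05 differed from siGFP by 0.04 (SE 0.05). Between the siRNAs the distance was 4.37, or 20.6-fold lower in siTAZ than in sibcat cells.

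The second HMGA2 probe set that reached the median level in every group, 1567224_at, had the same direction at a smaller size. It read 4.87, 5.45, 5.20 and 5.27 in siTAZ cells and 6.47, 6.16, 6.27 and 6.29 in sibcat cells. It read 6.27, 6.13, 6.12 and 6.08 in APC cells and 5.79, 5.64, 5.72 and 5.92 in siGFP cells. No siTAZ array reached the lowest siGFP array, and here the APC arrays, too, lay wholly above siGFP, unlike on 208025_s_at. The differences from siGFP were -0.57 in siTAZ, 0.53 in sibcat and 0.38 in APC cells (SE 0.10 each). Another, 1559891_at, passed 5.10 in sibcat cells alone, where it averaged 5.16 ± 0.22 against 4.88 ± 0.08 in siGFP cells. The 6 dim probe sets of HMGA2 had means of 2.17 to 4.43 in all groups, and their differences from siGFP ran from -0.29 to 0.19. A mean over all 9 probe sets put HMGA2 at -0.50 in siTAZ and 0.29 in sibcat cells against siGFP, since the dim probe sets enter it with equal weight.

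**Figure D1:**
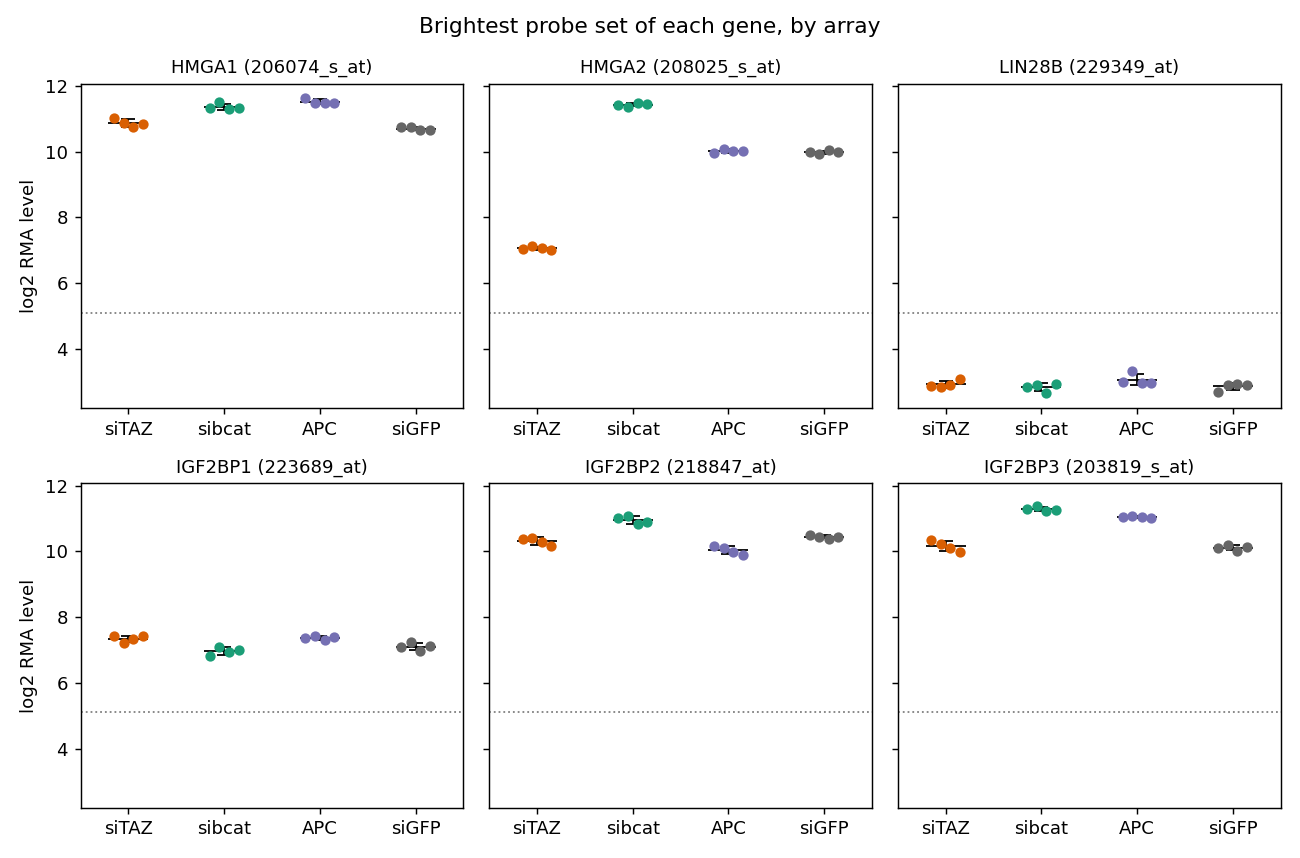
Log2 RMA level (vertical axis) of the brightest probe set of each of the 6 genes, 1 point per array with a line at the mean of 4 and bars for the SD, in siTAZ, sibcat, APC and siGFP cells; the dotted line marks the median probe set level of 5.10. HMGA2 is near 7.06 in siTAZ cells and 11.43 in sibcat cells, IGF2BP3 is higher in sibcat and APC cells than in siTAZ and siGFP cells, and LIN28B stays between 2.65 and 3.31.

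HMGA1, the widely expressed paralogue of HMGA2, was higher in sibcat and APC cells than in siGFP cells and was not called in siTAZ cells. On 206074_s_at the siTAZ arrays read 11.03, 10.86, 10.74 and 10.84 and the sibcat arrays 11.32, 11.50, 11.30 and 11.34. The APC arrays read 11.62, 11.48, 11.49 and 11.48, and the siGFP arrays 10.74, 10.75, 10.65 and 10.66. All sibcat and APC arrays lay above all siTAZ and siGFP arrays, and 1 of the siTAZ arrays lay within the siGFP range. HMGA1 rose by 0.82 in APC cells (1.76-fold, SE 0.07, limma adjusted p = 7.69e-08) and by 0.67 in sibcat cells (1.59-fold, SE 0.07, limma adjusted p = 1.00e-06). The siTAZ difference was 0.17 (SE 0.07, limma adjusted p = 0.109). It passed the threshold in 3 of 17 alternatives.

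On the other HMGA1 probe set, 210457_x_at, a design that may also bind related sequences, HMGA1 rose by 0.69 in APC cells (limma adjusted p = 1.16e-04). The sibcat difference there was 0.28 (limma adjusted p = 0.0675), which passed the threshold with the replicate letter as a block (adjusted p = 0.0363), and the siTAZ difference was -0.11 (adjusted p = 0.580). The order of group means was APC, sibcat, siTAZ, siGFP on 206074_s_at and APC, sibcat, siGFP, siTAZ on 210457_x_at. APC and sibcat cells differed by 0.15 on the first (limma adjusted p = 0.112) and by 0.40 on the second (limma adjusted p = 0.00807).

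LIN28B, the RNA-binding protein that blocks let-7 processing, gave signal only near the bottom of the scale. Its probe set, 229349_at, read 2.86, 2.85, 2.91 and 3.08 in siTAZ cells and 2.84, 2.91, 2.65 and 2.92 in sibcat cells. It read 3.00, 3.31, 2.96 and 2.97 in APC cells and 2.68, 2.91, 2.93 and 2.90 in siGFP cells. All 16 values lay below 5.10, and the APC arrays lay just above the siGFP arrays. The limma differences from siGFP were 0.07 in siTAZ (adjusted p = 0.704), -0.03 in sibcat (adjusted p = 0.900) and 0.20 in APC cells (adjusted p = 0.124), with a 95% interval of 0.01 to 0.40 for the last before adjustment. The APC level was 0.23 above the sibcat level (limma adjusted p = 0.0666, and 0.0498 with the replicate letter as a block). Its paralogue LIN28A, the embryonic stem cell form, was also dim, with group means of 2.58 to 2.66 and no call against siGFP.

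IGF2BP3, an RNA-binding protein of fetal tissue and many carcinomas, rose in sibcat and APC cells on all 4 of its probe sets and was called in siTAZ cells on none. On 203819_s_at the siTAZ arrays read 10.36, 10.23, 10.09 and 9.99 and the sibcat arrays 11.29, 11.37, 11.24 and 11.25. The APC arrays read 11.05, 11.09, 11.05 and 11.00, and the siGFP arrays 10.11, 10.18, 10.01 and 10.13. The sibcat and APC arrays formed separate ranges, both above every siTAZ and siGFP array, and the siTAZ and siGFP arrays overlapped. The increase was 1.18 in sibcat cells (2.27-fold, SE 0.07, limma adjusted p = 1.68e-09) and 0.94 in APC cells (1.92-fold, SE 0.07, limma adjusted p = 2.49e-08). The siTAZ difference was 0.06 (SE 0.07, limma adjusted p = 0.679), with a 95% interval of -0.09 to 0.21.

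The other IGF2BP3 probe sets gave increases of 0.43 to 1.22 in sibcat cells (limma adjusted p from 4.04e-08 to 0.00109) and of 0.37 to 1.02 in APC cells (limma adjusted p from 9.05e-07 to 0.00410). In siTAZ cells they gave -0.25, 0.00 and 0.23 (limma adjusted p = 0.438, 1.00 and 0.0743), the last on 1569033_at, where the siTAZ arrays lay above the siGFP arrays. The order of group means on 203819_s_at was sibcat, APC, siTAZ, siGFP. IGF2BP3 was 0.24 lower in APC than in sibcat cells on this probe set (limma adjusted p = 0.0170) and 0.28 lower on 203820_s_at (limma adjusted p = 0.0389), and the other probe sets were not called in that comparison. The first of these calls was lost in 2 of 17 alternatives (adjusted p = 0.0558 without sibcat replicate B) and the second in 6 of 15 (adjusted p up to 0.133), among them the fits without sibcat replicate C or D or APC replicate A or B.

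IGF2BP2, the family member that is also found in adult tissue, moved in opposite directions in sibcat and APC cells on its brighter probe set. On 218847_at the siTAZ arrays read 10.38, 10.41, 10.29 and 10.15 and the sibcat arrays 11.03, 11.07, 10.84 and 10.89. The APC arrays read 10.17, 10.09, 9.97 and 9.89, and the siGFP arrays 10.51, 10.44, 10.39 and 10.43. Every sibcat array lay above and every APC array below the siGFP range, while 1 of the siTAZ arrays fell within it. IGF2BP2 rose by 0.52 in sibcat cells (1.43-fold, SE 0.08, limma adjusted p = 6.19e-05) and fell by 0.41 in APC cells (0.751-fold, SE 0.08, limma adjusted p = 6.01e-04). It was 0.93 lower in APC than in sibcat cells (limma adjusted p = 4.22e-08). The siTAZ difference from siGFP was -0.13 (limma adjusted p = 0.282), and -0.29 (adjusted p = 0.00778) with the ACTB 3′ minus 5′ signal as a covariate.

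The second IGF2BP2 probe set, 223963_s_at, was near the median level and differed from the first in sibcat cells. On it IGF2BP2 fell by 0.46 in APC cells (limma adjusted p = 0.00387). Its sibcat difference was -0.06 (limma adjusted p = 0.754), so the increase in sibcat cells stood on 218847_at alone. Its siTAZ difference was -0.28 (limma adjusted p = 0.0793, and 0.0257 with the replicate letter as a block), and -0.41 with the ACTB covariate (adjusted p = 0.0308).

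IGF2BP1, the family member most restricted to fetal tissue, was called higher in siTAZ cells on 2 of its 3 probe sets and in APC cells on 1, and its probe sets disagreed in sibcat cells. On 223689_at the siTAZ arrays read 7.42, 7.20, 7.32 and 7.41 and the sibcat arrays 6.83, 7.09, 6.95 and 7.00. The APC arrays read 7.35, 7.43, 7.30 and 7.40, and the siGFP arrays 7.09, 7.25, 6.96 and 7.12. The APC arrays lay above the siGFP arrays, and the siTAZ and sibcat arrays each overlapped them. IGF2BP1 was 0.26 higher in APC cells (SE 0.08, limma adjusted p = 0.0147) and 0.23 higher in siTAZ cells (SE 0.08, limma adjusted p = 0.0360), and the sibcat difference was -0.14 (limma adjusted p = 0.222). The siTAZ call was lost in 8 of 18 alternatives, among them the fit with the ACTB covariate (adjusted p = 0.165) and those without replicate A, C or D of either group. The APC call was lost without siGFP replicate C (0.22, adjusted p = 0.0594).

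On 227377_at the siTAZ arrays read 7.27, 7.07, 7.10 and 7.13 and the sibcat arrays 7.51, 7.60, 7.54 and 7.55. The APC arrays read 7.20, 7.00, 6.98 and 6.94, and the siGFP arrays 6.80, 7.00, 6.77 and 6.85. Here the sibcat arrays were the highest of all, in contrast to 223689_at, where they were the lowest group on average. This probe set rose by 0.70 in sibcat cells (1.62-fold, SE 0.07, limma adjusted p = 8.15e-07) and by 0.29 in siTAZ cells (SE 0.07, limma adjusted p = 0.00685), which was 0.21 and no longer called with the ACTB covariate (adjusted p = 0.0959). The APC difference was 0.18 (limma adjusted p = 0.0897). The remaining probe set, 241574_s_at, dim in every group, was 0.37 higher in sibcat cells (limma adjusted p = 0.0484), a call lost in 8 of 14 alternatives, among them those without replicate B, C or D of either group. Of the 3 probe sets, the set at 223689_at was higher in siTAZ than in sibcat cells by 0.37 (limma adjusted p = 9.95e-04) while 227377_at was lower by 0.41 (limma adjusted p = 2.42e-04), so no single direction can be given for IGF2BP1 between these siRNAs.

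**Figure D2:**
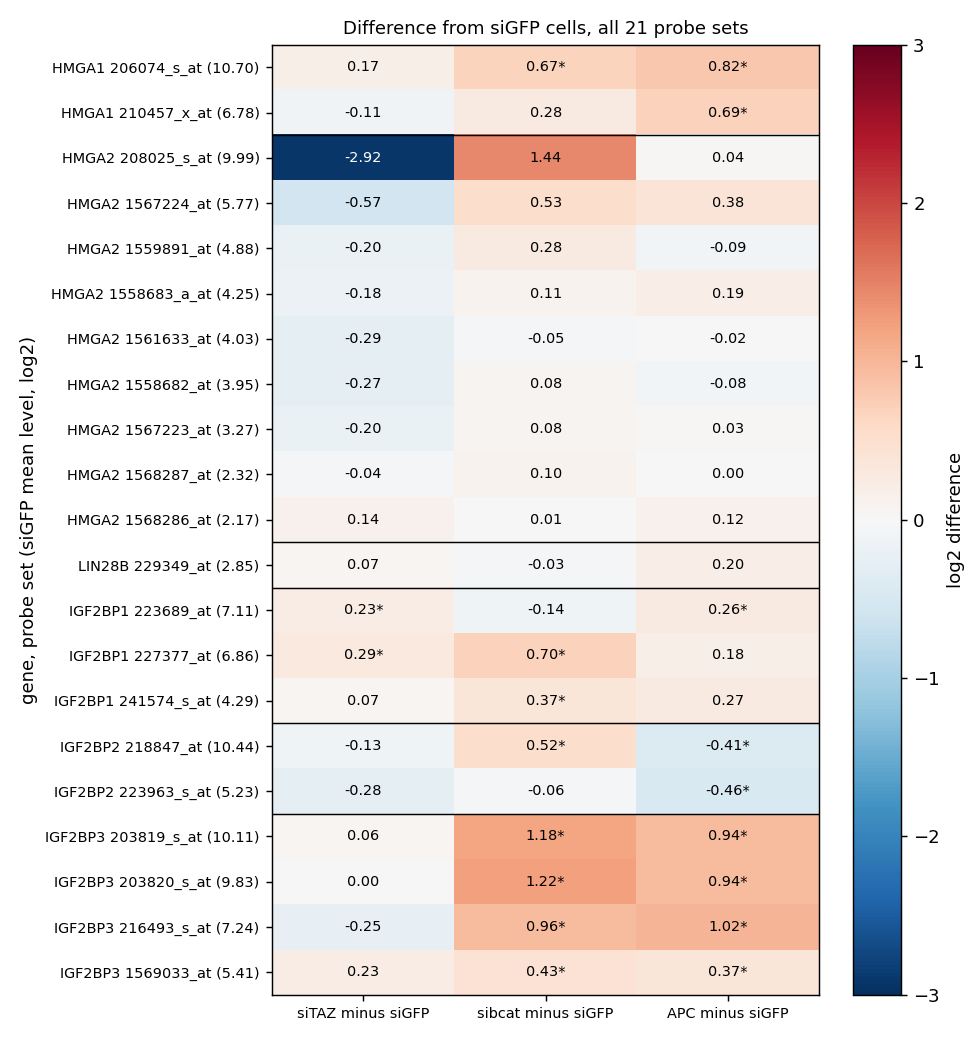
Log2 differences (colour and printed value) of all 21 probe sets, in rows grouped by gene with the siGFP mean level in brackets, in siTAZ, sibcat and APC cells minus siGFP cells (columns); an asterisk marks a limma adjusted p under 0.05 over all probe sets, and HMGA2 was not tested. IGF2BP3 is positive on all 4 probe sets in sibcat and APC cells, and the IGF2BP1 probe sets 223689_at and 227377_at have opposite signs in sibcat cells.

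Over the 12 probe sets of the 5 genes other than HMGA2, siTAZ cells had 2 called higher and 0 lower than siGFP, both of IGF2BP1, beside 10.5% of all probe sets called higher and 9.77% called lower. With the ACTB covariate both of these calls were lost and others were made, as named below. In siTAZ cells some probe sets were not called although the unadjusted 95% interval of their difference from siGFP excluded 0. These were HMGA1 206074_s_at (0.02 to 0.31), IGF2BP2 223963_s_at (-0.51 to -0.05) and IGF2BP3 1569033_at (0.05 to 0.42). The sibcat cells had 8 higher and 0 lower, beside 13.4% and 12.2% of all probe sets, dim ones included. All 4 probe sets of IGF2BP3 are among the higher ones here and in APC cells, and probe sets of 1 gene are not independent. The APC cells had 7 higher and 2 lower, beside 12.7% and 11.3%, and the 2 lower were those of IGF2BP2. These 3 comparisons share their siGFP arrays. Between the other groups, 8 of the 12 were called in siTAZ against sibcat cells (1 higher, 7 lower), beside 26.7% of all probe sets in either direction. In APC against sibcat cells 7 were called (2 higher, 5 lower), beside 31.5%, and in siTAZ against APC cells 6 were called (1 higher, 5 lower), beside 32.4%.

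The ACTB control probe sets, whose 3′ minus 5′ log2 signal grows as RNA or its labelling shortens, give a sign of RNA quality. That difference averaged 2.56 ± 0.39 in siTAZ, 2.30 ± 0.24 in sibcat, 2.08 ± 0.32 in APC and 2.05 ± 0.16 in siGFP cells (SD, n = 4 each). Against siGFP, exact two-sided permutation tests gave p = 0.0571, 0.171 and 0.886 in that order, with 0.0286 the smallest possible. With it as a covariate, both siTAZ calls of IGF2BP1 were lost, and IGF2BP2 218847_at, IGF2BP2 223963_s_at and IGF2BP3 216493_s_at were called lower in siTAZ cells (the last at -0.63, limma adjusted p = 0.0189). The sibcat call of IGF2BP1 241574_s_at was also lost (limma adjusted p = 0.104). No other call of these genes against siGFP changed with it.

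The factors that make and use let-7 were followed next. Here and in the gene lists below, each gene was read by its brightest probe set alone, so a disagreement between probe sets would not show. Of 20 genes listed, 19 were analysed. In siTAZ cells 3 were called higher and 3 lower, with a median difference of -0.03 against 0.02 over all genes, where 15.2% were called higher and 11.8% lower. In sibcat cells 4 were higher and 8 lower (median -0.05 against 0.00, with 17.1% and 15.8% of all genes). In APC cells 3 were higher and 5 lower (median 0.11 against 0.01, with 15.0% and 15.7% of all genes).

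DICER1, the nuclease that cuts let-7 precursors, rose by 1.02 in siTAZ cells (means 10.14 against 9.12 in siGFP, limma adjusted p = 4.46e-07) and by 1.21 in sibcat cells (10.33 against 9.12, limma adjusted p = 3.01e-08). TRIM71, a let-7 target that helps repress mRNAs in early embryos, was 1.07 higher in siTAZ cells and 0.88 lower in APC cells (limma adjusted p = 9.08e-06 and 5.29e-05), though its siGFP mean of 4.50 was below the median level. The argonaute genes, whose proteins hold the microRNA, split in siTAZ cells: AGO2 rose by 0.48 and AGO1 fell by 0.42 (limma adjusted p = 2.43e-04 and 2.62e-05). AGO4 fell by 0.67 in APC cells (limma adjusted p = 1.89e-04). The TNRC6 genes, which encode the silencing partners of argonaute, split in sibcat cells, where TNRC6A rose by 0.96, TNRC6B rose by 0.76 and TNRC6C fell by 1.18 (limma adjusted p from 1.59e-09 to 5.03e-06). TNRC6A also rose by 0.42 in APC cells (limma adjusted p = 0.00377). HNRNPA1, which binds the let-7a precursor, fell by 0.61 in APC cells (limma adjusted p = 1.40e-06).

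Some let-7 host transcripts have probe sets on the array, and were looked up after the lists had been drawn up. MIRLET7BHG, a host transcript that holds let-7b, was 0.36 higher in sibcat than in siGFP cells on probe set 232480_at (6.64 ± 0.07 against 6.28 ± 0.13, limma adjusted p = 0.00230). It was 0.36 lower on 1557342_a_at (5.15 ± 0.20 against 5.51 ± 0.18, limma adjusted p = 0.0191), so its direction is not settled. A probe set annotated to MIRLET7D was called in none of the comparisons with siGFP (differences of -0.10 in siTAZ, 0.15 in sibcat and 0.01 in APC cells). The antisense transcripts LIN28B-AS1 and IGF2BP2-AS1 were not called on any probe set.

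Other mRNAs known as let-7 targets were called in both directions. Of 32 listed, 29 were analysed. In siTAZ cells 12 were called higher and 3 lower (median 0.10 against 0.02 over all genes). In sibcat cells 8 were higher and 8 lower (median -0.01 against 0.00), and in APC cells 7 were higher and 8 lower (median -0.03 against 0.01). The shares of all genes called are those given above for the let-7 factors.

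Within this list TGFBR1, a TGF-beta receptor, fell by 1.73 in siTAZ cells (means 8.86 against 10.59, limma adjusted p = 1.40e-09). ARID3A, a DNA-binding factor, rose by 1.18 there (limma adjusted p = 2.83e-10), and THBS1, a matrix glycoprotein, rose by 0.46 (limma adjusted p = 0.0324). The cell cycle kinase gene CDK6 rose by 0.66 in siTAZ and by 1.68 in APC cells (limma adjusted p = 5.88e-08 and 1.08e-13). CCND1, its cyclin partner and a Wnt target, fell by 1.44 in sibcat cells and fell by 1.53 in APC cells (limma adjusted p = 3.59e-11 and 9.29e-12). IRS2, an adaptor of insulin and IGF signalling, fell by 0.84 and 0.94 in the same groups (limma adjusted p = 9.01e-08 and 1.78e-08). IGF1R, the receptor of IGF signalling, rose by 1.00 in sibcat cells (limma adjusted p = 5.09e-07), as did NR6A1, an orphan nuclear receptor, by 0.88 (limma adjusted p = 3.16e-09). ACVR1C, an activin-type receptor, rose by 2.36 in APC cells (limma adjusted p = 2.90e-10), where its siGFP mean of 4.35 was below the median level.

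**Figure D3:**
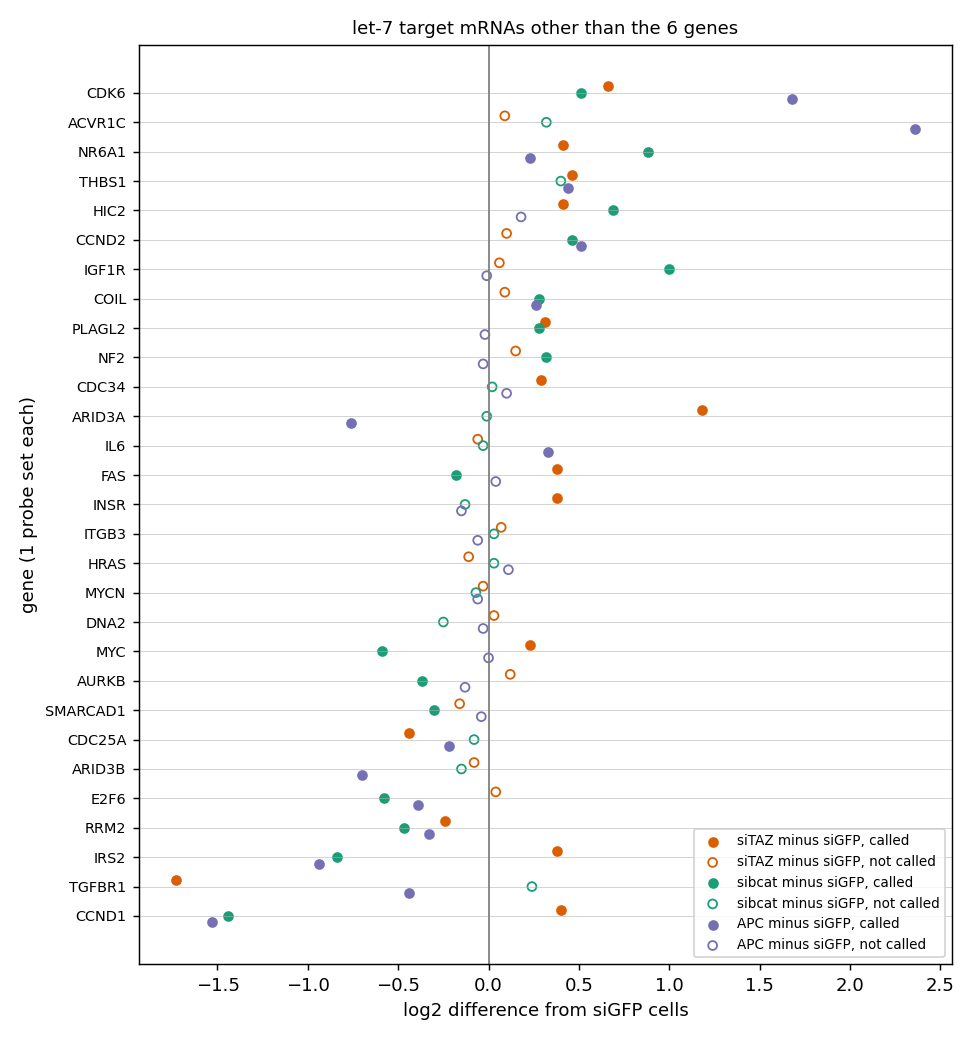
Log2 difference from siGFP cells (horizontal axis) by gene (vertical axis) for the 29 let-7 target mRNAs analysed other than the 6 genes, in siTAZ, sibcat and APC cells, with filled points where the limma adjusted p is under 0.05 and open points otherwise. Differences fall on both sides of 0 in each group, with 12 called higher and 3 lower in siTAZ, 8 and 8 in sibcat, and 7 and 8 in APC cells.

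Other oncofetal genes, those expressed in fetal tissue and again in tumours, included the following calls. Of 13 listed, 11 were analysed: 3 were higher and 0 lower in siTAZ cells (median 0.15), 3 and 0 in sibcat cells (median 0.05), and 4 and 1 in APC cells (median 0.01). Over all genes 15.2% were called higher and 11.8% lower in siTAZ, 17.1% and 15.8% in sibcat and 15.0% and 15.7% in APC cells, with medians of 0.02, 0.00 and 0.01. PLAG1, a zinc finger activator, rose by 0.94 in siTAZ, 1.14 in sibcat and 0.41 in APC cells (limma adjusted p = 4.91e-06, 3.06e-07 and 0.00886). TPBG, the trophoblast glycoprotein, rose by 0.39, 0.51 and 0.43 in the same order (limma adjusted p = 1.99e-04, 7.28e-06 and 5.13e-05). SALL4, a stem cell transcription factor, rose by 1.12 in sibcat cells (limma adjusted p = 1.08e-06). PEG3, an imprinted zinc finger gene, was 0.40 higher in APC cells (limma adjusted p = 0.0210) with means of 3.04 and 2.63, far below the median level.

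Of 11 mRNAs known to be bound by IGF2BP proteins, 7 were analysed. In siTAZ cells 1 was called higher and 0 lower (median -0.06), and in sibcat and APC cells 2 were higher and 2 lower in each (medians 0.09 and 0.00), to be read beside the same shares and medians over all genes. MYC, whose mRNA IGF2BP1 stabilises, was 0.23 higher in siTAZ cells and 0.59 lower in sibcat cells (limma adjusted p = 0.0177 and 2.81e-06). CD44, a cell surface receptor, rose by 0.42 in sibcat and 0.26 in APC cells (limma adjusted p = 1.03e-05 and 0.00142). BTRC, the ubiquitin ligase adaptor of beta-catenin, rose by 0.52 and 0.39 in these groups (limma adjusted p = 4.95e-05 and 8.90e-04). CTNNB1, the siRNA target itself, is the other lower gene in sibcat cells, and CTNNB1 and ACTB were the 2 lower in APC cells (by 0.38 and 0.32, limma adjusted p = 0.0184 and 0.0174).

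The other high mobility group genes were called in both directions in each group. Of 12 listed, 11 were analysed: 3 were higher and 3 lower in siTAZ (median 0.12), 1 higher and 4 lower in sibcat (median -0.14) and 2 higher and 2 lower in APC cells (median 0.01), again beside those shares over all genes. HMGB3, a chromatin protein of progenitor cells, fell in siTAZ, sibcat and APC cells, by 0.31, 0.60 and 0.28 (limma adjusted p = 4.09e-04, 2.03e-07 and 8.83e-04). The nucleosome-binding gene HMGN4 fell by 1.03 in sibcat cells (limma adjusted p = 2.11e-08). HMGN2 fell by 0.35 in siTAZ and 0.69 in sibcat cells (limma adjusted p = 5.63e-05 and 1.08e-08). HMGN3 fell by 0.54 in sibcat cells and rose by 0.32 in APC cells (limma adjusted p = 2.74e-05 and 0.00410). HMGN5 was 0.70 lower in APC cells (limma adjusted p = 0.00757) at means of 2.83 and 3.52, below the median level. HMGXB3 was 0.38 higher in siTAZ cells (limma adjusted p = 5.11e-04), and HMGXB4 rose by 0.25 in siTAZ and 0.26 in APC cells (limma adjusted p = 0.0452 and 0.0291).

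The genes most like each member were found by Pearson's r between brightest probe sets over the 16 arrays, among 13011 genes whose highest group mean reached 5.10. The 16 points share 4 groups, so r mostly follows the group means, and the values are descriptions. For HMGA2 these were SLC39A10, a zinc transporter (r = 0.997), ZMAT3, a zinc finger protein (r = 0.993), and SERPINH1, a collagen chaperone (r = 0.992). SERPINH1, for instance, averaged 8.17 in siTAZ, 10.06 in sibcat, 9.48 in APC and 9.53 in siGFP cells. For IGF2BP3 they were PPARG, a nuclear receptor (r = 0.985), PLLP, a membrane protein (r = 0.984), and NCOA4, a ferritin receptor (r = 0.983).

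For HMGA1 the closest were MRPS5, a mitochondrial ribosomal protein (r = 0.984), the complement gene C3 (r = 0.982) and INAVA (r = 0.982). For IGF2BP2 they were ADIRF (r = 0.976), ZNF91 (r = 0.976) and CTSL, a lysosomal protease (r = 0.975). For IGF2BP1 (by 223689_at) they were TATDN2, SORL1 and DNAJC12 (r = 0.936, 0.924 and 0.921), and for LIN28B, whose signal was dim, VIRMA, TNXB and ID4 (r = 0.786, 0.784 and 0.768). Among the members themselves, HMGA1 and IGF2BP3 had the highest r (0.93), followed by HMGA2 and IGF2BP3 (0.70), and IGF2BP1 and IGF2BP2 had the lowest (-0.81). That value used IGF2BP1 223689_at, and on 227377_at the r with IGF2BP2 was 0.72, so its sign depends on the probe set.

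**Figure D4:**
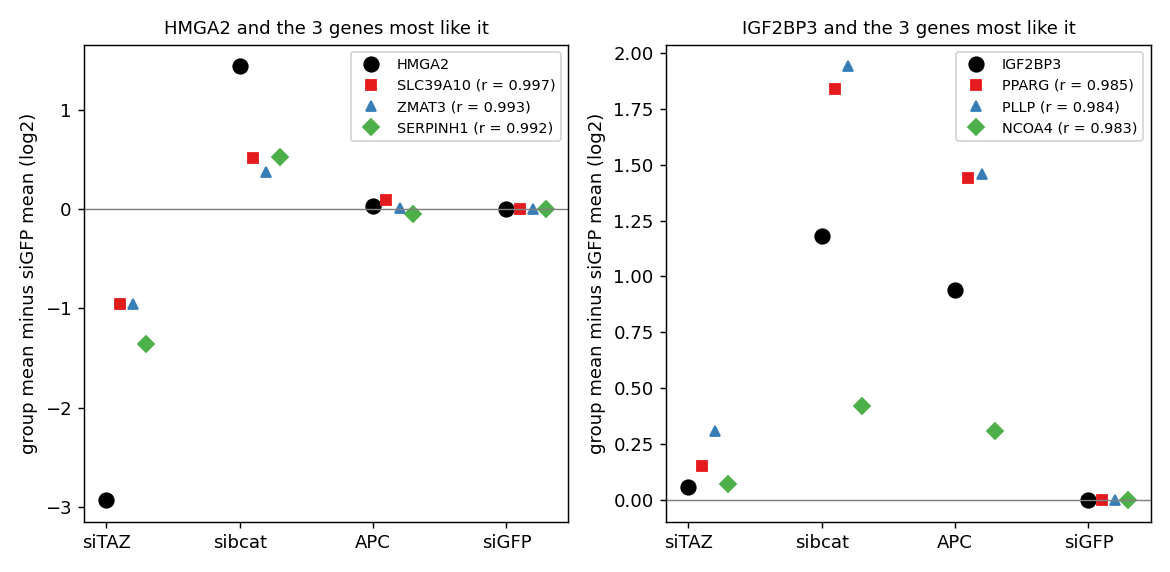
Group mean minus siGFP mean (log2, vertical axis) in siTAZ, sibcat, APC and siGFP cells for HMGA2 (left) and IGF2BP3 (right), each with the 3 genes of highest Pearson r to it over 16 arrays, 1 point per gene and group. HMGA2 and its 3 closest genes are lowest in siTAZ and highest in sibcat cells, with smaller distances for the 3, and IGF2BP3 and its 3 are high in sibcat and APC cells.

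Promoter windows, from 250 bases before to 50 bases after a start, were in the RefSeq table (GRCh38.p14) for 4 of the 6 genes, 7 windows in all. They were searched on both strands for GGAATG, the core of a TEAD site (reverse CATTCC), and for CTTTGA, the core of a TCF/LEF site (reverse TCAAAG), which do not overlap here. Only 1 of the 7 windows held either core, and it is shown because it held both. It belongs to IGF2BP2 and lies at chr3:185821093-185821392 on the minus strand, with both cores in capitals.
IGF2BP2: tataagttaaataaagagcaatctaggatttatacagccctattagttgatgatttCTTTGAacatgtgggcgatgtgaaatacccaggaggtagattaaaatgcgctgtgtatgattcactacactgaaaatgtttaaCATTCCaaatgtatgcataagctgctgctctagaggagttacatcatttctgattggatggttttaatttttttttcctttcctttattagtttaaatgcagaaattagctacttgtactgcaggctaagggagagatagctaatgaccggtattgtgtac
The TCF/LEF core begins at -194 and the TEAD core at -111 from the start. Of the 35116 promoter windows in the table, 14.0% held the TEAD core and 12.9% held the TCF/LEF core. The other IGF2BP2 window and those of HMGA1, IGF2BP3 and LIN28B held neither set of letters.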

How the data were processed

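Total RNA of SW480 cells was measured on 16 Affymetrix arrays. The authors deposited 1 table of log2 expression values made with RMA, which corrects background, quantile-normalises arrays and summarises probe sets; RMA is named, with no version, in the submitters' processing notes. The log2 base was read from the values, which run from 1.8 to 14.56. Array medians lay between 5.06 and 5.12, arrays correlated at r = 0.977 to 0.9979, and arrays shared at most 3.26% of their values pairwise, far from a copy. Quantile normalisation hides a change in total RNA per cell, and the number of arrays limits precision. Since the labels' biological replicates are not said to be separate cultures, a p-value covers the spread among these arrays alone, and that spread may be technical.

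Of 54675 probe sets, the probe annotation paired 41097 with 1 gene, 1801 with several and 11777 with none; all 21 member probe sets matched RefSeq by gene ID. All 16 arrays entered 1 limma fit (limma 3.58.1, R 4.3.3, lmFit and eBayes, no block) with 6 comparisons. Adjusted p-values are Benjamini-Hochberg over all 54675 probe sets within a comparison. The gene lists use these same values, each gene by its brightest probe set, and the shares of all genes called are over 19775 genes. The fit was run on simulated data with independent noise in each array, so that run says nothing about replicates that deviate together. Same-letter replicates deviated together in every pair (r = 0.122 to 0.404), and replicates of different letters were not compared. Whether this reflects a pairing by letter or batches such as A and B against C and D was therefore not tested. The value with the replicate letter as a block is given where it changed a call. Figures were drawn with matplotlib 3.10.9 and exact tests run with scipy 1.17.1.

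Members and lists were chosen with earlier results of these data known. Named genes were all member probe sets, the 3 genes most like each member, up to 4 called genes with the largest difference per list and comparison, and WWTR1, CTNNB1 and APC; LIN28A and the let-7 host and antisense transcripts were named outside that rule. Alternatives were another unit (brightest probe set or mean per gene), the replicate block, letters A and B set against C and D as batches, the ACTB 3′ minus 5′ signal, only the arrays compared, an intensity trend, dropping dim or _s_at and _x_at probe sets, median centring and leaving out each array.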

Additional observations from a re-analysis of the deposited data

Results flagged for a closer look

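In 8 of 84 groups of 4 arrays (21 probe sets in 4 groups), 1 array stood apart by more than Dixon's critical value at the 95% level, where chance alone would mark about 4.20. HMGA1 206074_s_at read 11.62 in APC replicate A, against 11.48 to 11.49 in the other APC arrays. HMGA2 1559891_at read 4.37 in siTAZ replicate A (others 4.76 to 4.84), HMGA2 1558683_a_at read 4.20 in APC replicate B (others 4.49 to 4.54), and HMGA2 1567223_at read 3.16 in sibcat replicate D (others 3.40 to 3.42). LIN28B 229349_at read 3.31 in APC replicate B (others 2.96 to 3.00) and 2.68 in siGFP replicate A (others 2.90 to 2.93). IGF2BP2 223963_s_at read 4.86 in siTAZ replicate D, against 4.97 to 4.98 in the other siTAZ arrays. IGF2BP3 216493_s_at read 7.72 in siGFP replicate A, against 7.01 to 7.12 in the other siGFP arrays. The HMGA2, LIN28B and IGF2BP2 values lay below 5.10, and none of the 8 belongs to HMGA2 208025_s_at or IGF2BP3 203819_s_at.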

How the results depend on the processing

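The counts of called probe sets, out of 12, were 2 in siTAZ, 8 in sibcat and 9 in APC cells against siGFP, 8 in siTAZ and 7 in APC against sibcat, and 6 in siTAZ against APC cells. Counted by the brightest probe set of the 5 genes, they were 1, 3, 4, 4, 4 and 3, in the same order. By the mean of a gene's probe sets they were 1, 4, 4, 3, 3 and 3, and both test fewer units. For these settings and those below, the share called over all units is not given. A change in these counts therefore cannot be read as a result about these genes. Without _s_at and _x_at probe sets (5 left), sibcat against siGFP gave 3, APC against siGFP 3, siTAZ against sibcat 3, APC against sibcat 3 and siTAZ against APC 1. The siTAZ count against siGFP was 4 with letters A and B set against C and D as batches, 1 with only the arrays compared and 5 of 10 without dim probe sets; the cause was not tested. Leaving out 1 array gave 1 to 2 there, with 1 without siGFP replicate A or C or siTAZ replicate A, C or D. With the mean of probe sets, IGF2BP1 reversed against 223689_at: 0.31 in sibcat against siGFP (main -0.14), -0.11 in siTAZ against sibcat (main 0.37) and -0.07 in APC against sibcat (main 0.40), as its probe sets disagree. The replicate block called HMGA1 210457_x_at in sibcat cells (0.28, adjusted p = 0.0363), IGF2BP2 223963_s_at in siTAZ cells (-0.28, adjusted p = 0.0257) and LIN28B in APC against sibcat cells (0.23, adjusted p = 0.0498), and changed no other call. IGF2BP3 203819_s_at kept its calls in sibcat and APC cells against siGFP in all 17 alternatives (0.95 to 1.20 and 0.82 to 0.96), as did HMGA1 206074_s_at (0.48 to 0.69 and 0.75 to 0.83). HMGA2 208025_s_at ran from -2.94 to -0.50 in siTAZ and from 0.29 to 1.46 in sibcat cells, the value nearest 0 in each being the mean of its 9 probe sets. Signal near background limits LIN28B and the dim HMGA2 probe sets.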
